A study of Mus musculus with 12 samples.

Results

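The SLC25 genes encode the mitochondrial carrier family, and their RNA levels were followed in mouse bone marrow-derived macrophages (BMDMs) in 4 groups of 3 libraries. Members were all genes whose symbol is Slc25a followed by a number and that were listed in at least 1 library, which gave 35 of 16145 genes. Cells of wild-type (WT) mice were kept with vehicle for 12 h, with 4-octyl itaconate (4-OI, a membrane-permeable itaconate ester) at 120 µM for 15 h, or with hemin, the oxidised form of heme that carries iron, at 15 µM for 12 h. Those of Irg1KO mice had vehicle for 12 h. The gene Irg1, now called Acod1, encodes the itaconate-forming decarboxylase of cis-aconitate. All cells had been grown with M-CSF, the macrophage growth factor, for 7 days. The 4-OI group differs from its vehicle group and from the hemin group in hours as well as in the compound. In both comparisons, hours and compound cannot be told apart. No Irg1KO group with a compound is among the libraries, and the labels do not give the allele, the strain, age or sex of the mice. Whether replicates were separate mice or cultures is not stated, so a p-value reflects only the spread among these libraries, which may be technical.

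Carriers of this family sit mostly in the inner mitochondrial membrane, where each moves a defined set of metabolites, nucleotides or ions between the cytosol and the matrix. They link the citric acid cycle to lipid synthesis, exchange ADP for ATP, pass redox equivalents through the malate-aspartate shuttle, and bring in iron for heme and iron-sulfur clusters. Macrophages are known to reshape these pathways on activation, and itaconate is itself made in the matrix and carried out of it.

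Of the 35 members, 33 were listed in all 12 libraries, while Slc25a18 was listed in 11 and Slc25a34 in 9. The reference annotation names 47 Slc25a symbols, and the 12 not analysed here include Slc25a1 (the citrate carrier), Slc25a10 (the dicarboxylate carrier) and Slc25a20 (the carnitine/acylcarnitine carrier). The citrate and dicarboxylate class is therefore represented by Slc25a11 alone. For 15 of the 35 members (42.9%), the files list no curated RefSeq transcript, so their counts rest on predicted or newly assembled transcripts; this holds for 321 of 15554 genes with a curated transcript in the reference (2.06%). These 15 include Slc25a3, Slc25a11, Slc25a12, Slc25a13, Slc25a22 and Slc25a25, and what this does to their counts was not tested. Expected counts of Slc25a37 and Slc25a40 were whole in none of the 12 libraries, so some reads counted for them were split with other transcripts.

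Library totals ran from 9405112 to 22390882 expected counts, and counts of replicate pairs differed more than counting error, with a chi-square of 2.35 to 4.71 per degree of freedom. Levels of a gene across groups are given as CPM, that is, counts scaled to library size and by TMM factors, and levels of different genes are compared only in the deposited FPKM, which are per transcript length. The targeted gene Acod1 was at 21.7, 13.6 and 26.3 CPM in the libraries labelled Irg1KO and at 27.5, 30.5 and 25.0 CPM in WT vehicle. These groups overlap (log2 fold change -0.48, SE 0.26, adjusted p = 0.194 by edgeR), so the gene's level does not check the labels. All 10 macrophage markers were listed, and their summed level was 23910 to 27680 CPM over the 12 libraries. Single ones moved: 3 rose and 3 fell with 4-OI (Mrc1 log2 -1.63, Cd14 -0.67), 4 rose and 2 fell with hemin (Mrc1 -0.58), and 2 rose and 2 fell in Irg1KO. The summed level of 11 fibroblast and stromal markers was 2484 to 2981 CPM in WT vehicle, 13170 to 14790 in Irg1KO, 2978 to 3306 with 4-OI and 2346 to 2958 with hemin. In Irg1KO all 9 that could be tested were called higher. With 4-OI 3 were called higher and 2 lower (Cxcl12 log2 -0.985, Postn -0.596), and Dcn and Lum were at 0. With hemin 2 were called lower and 0 higher. The summed level of 5 contractile markers was 317.7 to 359 CPM in WT vehicle, 1329 to 1586 in Irg1KO, 390.9 to 437.5 with 4-OI and 277.1 to 357 with hemin. All 5 were called higher in Irg1KO, 1 rose and 1 fell with 4-OI, and 1 fell with hemin. For neutrophil markers (8 of 9 listed) the sum was 83.9 to 94.4 CPM in WT vehicle, 41.6 to 45.7 in Irg1KO, 338.5 to 361 with 4-OI and 95.3 to 104.9 with hemin, with Ly6g, a defining neutrophil marker, at 0 or not listed in all. Of 5 tested, S100a8 (log2 3.69) and Mmp8 (1.97) were called higher with 4-OI and none lower, Mmp8 was higher with hemin (0.20), and in Irg1KO 3 were lower and S100a8 higher (0.56). Endothelial markers (3 of 5 tested) summed to 33.5 to 38.6 CPM in WT vehicle and 29.4 to 32.6 in Irg1KO (Kdr called lower). The sum was 7.98 to 9.02 with 4-OI (Kdr and Cdh5 called lower, Tek at 0) and 15.9 to 17.0 with hemin (Kdr lower). Osteoclast markers, with Calcr at 0 or not listed in all, summed to 37.44 to 37.55 CPM in WT vehicle, 70.9 to 80.3 in Irg1KO (Ctsk called higher), 43.5 to 46.1 with 4-OI (Acp5 and Ocstamp higher) and 38.2 to 42.0 with hemin (Acp5 higher). Summed cycling markers fell from 1273 to 1312 CPM in WT vehicle to 523.4 to 541.5 with 4-OI (5 of 5 called lower), to 1074 to 1115 in Irg1KO (5 of 5) and to 1054 to 1198 with hemin (3 of 5). Erythroid markers, relevant to the iron carriers, summed to at most 0.579 CPM in any library (3 of 10 listed, with the globins and Gata1 at 0 or not listed). The part of these cell type and growth markers in the results that follow was not tested. In bulk RNA, fewer cells of a type and less RNA per cell cannot be told apart.

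In WT vehicle macrophages a handful of the 35 members made up most of their summed FPKM. Ucp2, an SLC25 gene under another name, is outside this sum and is given further below. The 12 Slc25a symbols not analysed are outside it too. Per transcript length, Slc25a5 (adenine nucleotide translocase 2) led with 424.7 ± 13.5 FPKM (SD, n = 3 here and below), or 35.7% of the summed FPKM of the 35 members. Slc25a3, the phosphate carrier, followed with 254.2 ± 18.2 FPKM and Slc25a4 (adenine nucleotide translocase 1) with 130.8 ± 8.8 FPKM. These 3 carriers together supply ATP synthase with ADP and phosphate and export its ATP. Next came Slc25a39, which carries glutathione into the matrix, at 68.2 ± 1.9 FPKM and Slc25a11, the oxoglutarate/malate carrier, at 59.6 ± 4.0 FPKM. The ranges of these first 5 did not touch one another. Slc25a45 (25.6 ± 1.2 FPKM) and the peroxisomal cofactor carrier Slc25a17 (24.3 ± 0.2 FPKM) were the next in order. Their ranges lay close together, from 24.7 to 26.9 and from 24.1 to 24.5 FPKM. From Slc25a12 at 22.1 to Slc25a35 at 1.77 FPKM, 21 carriers formed a continuous slope on which many neighbours overlap. For example, Slc25a22 (15.0 to 17.3 FPKM), the mitoferrin Slc25a28 (15.1 to 16.3) and Slc25a46 (13.7 to 16.3) cannot be ordered by their spread. Another 7 carriers had a mean below 0.5 FPKM.

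**Figure D1:**
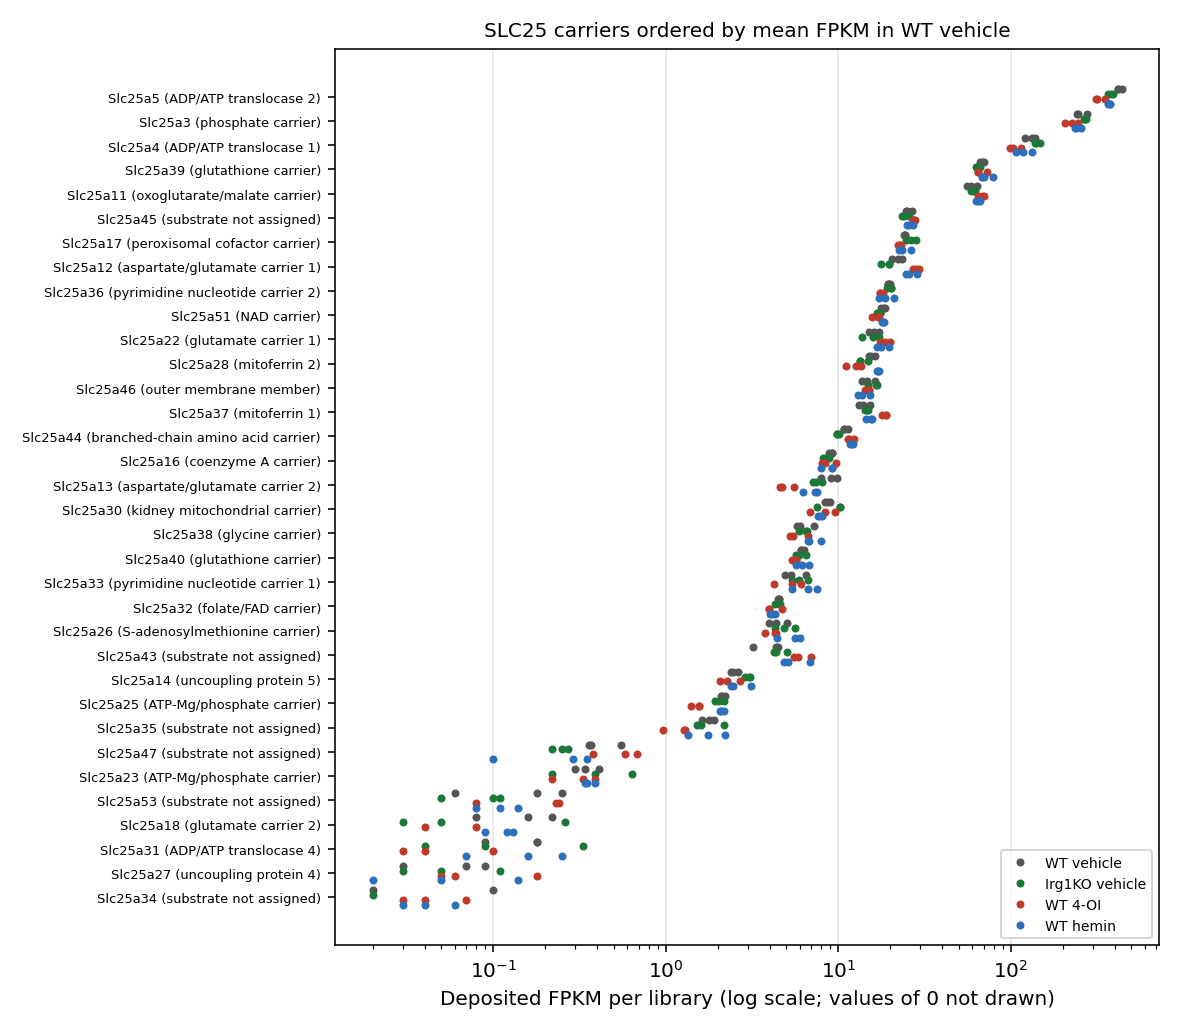
Deposited FPKM (log axis) of the SLC25 members, 1 of them left out, in each of the 12 libraries, with a point per library coloured by group and genes ordered by their mean in WT vehicle. Slc25a5, Slc25a3 and Slc25a4 lie highest in every group, and the lowest 7 carriers lie below 1 FPKM.

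Summed over the 35 members, the level was 1912, 1890 and 1961 CPM in WT vehicle, 1924, 1884 and 1911 in Irg1KO, 2004, 1897 and 1915 with 4-OI and 1951, 1972 and 1925 with hemin. Each treated or knockout group overlaps WT vehicle in this sum. As a share of all counts without TMM scaling, the 35 members took 0.201, 0.195 and 0.204% in WT vehicle. With 4-OI they took 0.189, 0.180 and 0.181%. These shares do not overlap, so the sum's position with 4-OI depends on the scaling. Slc25a3, Slc25a4 and Slc25a5 made up 49.4 ± 1.1% of the summed CPM in WT vehicle and 49.7 ± 0.4% in Irg1KO. They made up 44.0 ± 1.9% with 4-OI and 46.1 ± 0.1% with hemin. CPM are not divided by transcript length, so these shares serve to compare groups, not genes.

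A total of 30 members passed the filter on low counts and were tested together with all other genes, 12148 in all. Called means an adjusted p (Benjamini-Hochberg) under 0.05 in edgeR's quasi-likelihood test. The 5 that did not pass were Slc25a18 (at most 6 expected counts in a library), Slc25a27 (at most 12), Slc25a31 (at most 9), Slc25a34 (at most 4) and Slc25a53 (at most 14). With 4-OI, 7 of the 30 rose (background 25.4% of all genes) and 5 fell (background 25.0%), so that 40.0% were called against 50.4% of all genes. With hemin, 7 rose (background 9.48%) and 1 fell (background 7.74%), or 26.7% against 17.2%. In Irg1KO none was called higher (background 23.5%) and 3 were called lower (background 16.3%), or 10.0% against 39.8%. At an unadjusted p under 0.05 the Irg1KO counts were 4 higher and 4 lower (26.3% and 20.9% of all genes), and DESeq2 gave 0 higher and 3 lower at an adjusted p under 0.05 (20.3% and 17.2%). Tested directly against each other, 4-OI exceeded hemin for 6 members (background 20.6%) and lay below it for 3 (background 21.7%), or 30.0% against 42.3%.

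Changes were small in every comparison. The median log2 fold change of the 30 members was 0.04 with 4-OI, 0.08 with hemin and 0.004 in Irg1KO, beside -0.003, -0.006 and 0.0 over all genes. The median absolute log2 fold change was 0.13 with 4-OI (0.24 over all genes), 0.13 with hemin (0.12) and 0.12 in Irg1KO (0.16). None of the 30 tested members reached a 2-fold change from WT vehicle. The hemin and 4-OI comparisons share the 3 WT vehicle libraries, so their values below are given side by side and no likeness is read from them.

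How the calls split between higher and lower moved under some other settings. The FPKM tests change the measure and the test as well as the scaling, and the part of each was not tested. Tested on log2(FPKM + 1), 4-OI gave 4 members higher and 8 lower (14.3% and 37.9% of all genes), hemin 2 and 2 (5.11% and 11.7%), and 4-OI against hemin 2 and 7 (14.2% and 28.7%). With these FPKM the median log2 fold change of all genes was -0.11 for 4-OI in place of -0.003. Upper-quartile scaling gave 3 higher and 6 lower for 4-OI against hemin (18.7% and 23.6%). Single libraries also moved the counts. Without hemin replicate 2 there was 1 member higher with hemin in place of 7, and 1 lower (7.03% and 5.45% of all genes). Without hemin replicate 3 there were 2 higher and 0 lower (7.05% and 5.54%), and DESeq2 called 1 higher and 1 lower (8.2% and 7.38%).

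**Figure D2:**
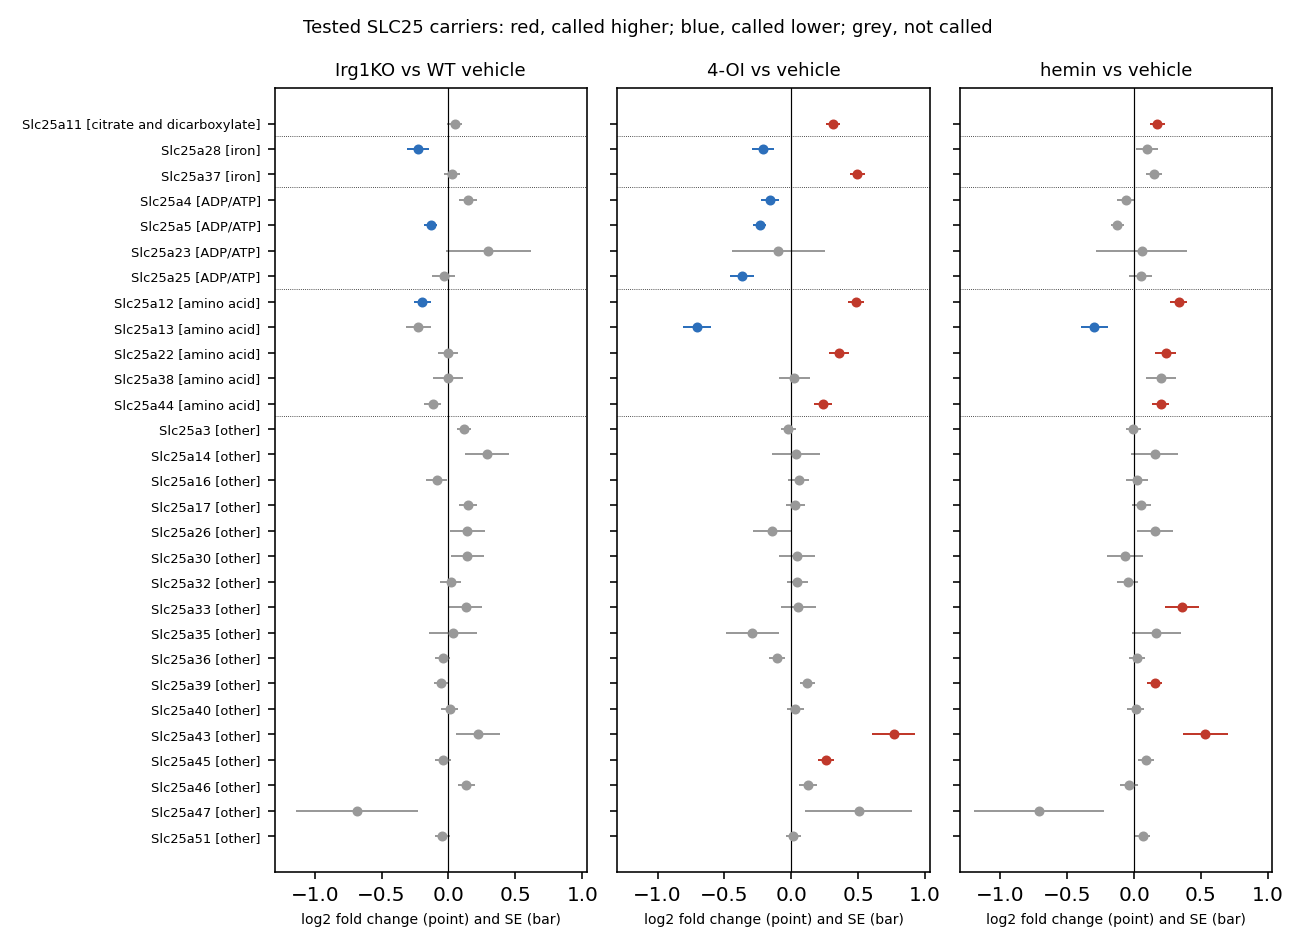
Log2 fold change (point) and SE (bar) of the tested members, 1 of them left out, in the 3 comparisons with WT vehicle, grouped by substrate class, with called members in red (higher) or blue (lower). Slc25a12 and Slc25a13 move apart with both compounds, Slc25a37 and Slc25a28 with 4-OI, and no red point appears for Irg1KO.

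Promoter windows of 4 members are shown because these genes changed in opposite directions or carry the motifs searched. A motif in a window picked for holding it is therefore no result. The mitoferrins, which also moved in opposite directions with 4-OI, are not shown. They are RefSeq windows of 300 bases on build GRCm38.p6, from 250 before to 50 after a start site, read 5′ to 3′ on the gene's strand; 26 of the 35 members matched, with 34 windows. Capitals mark matches on either strand to the antioxidant response element TGACNNNGC, which the transcription factor NRF2 is known to bind, or to the E-box CACGTG. No marked match overlaps another.
Slc25a12, chr2:71367706-71368005, minus strand: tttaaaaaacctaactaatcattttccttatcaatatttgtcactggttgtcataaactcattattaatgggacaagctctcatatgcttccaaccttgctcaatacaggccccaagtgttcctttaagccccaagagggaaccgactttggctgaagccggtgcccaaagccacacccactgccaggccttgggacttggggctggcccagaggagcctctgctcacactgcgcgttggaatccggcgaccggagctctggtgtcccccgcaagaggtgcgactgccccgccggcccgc
Slc25a13, chr6:6217124-6217423, minus strand: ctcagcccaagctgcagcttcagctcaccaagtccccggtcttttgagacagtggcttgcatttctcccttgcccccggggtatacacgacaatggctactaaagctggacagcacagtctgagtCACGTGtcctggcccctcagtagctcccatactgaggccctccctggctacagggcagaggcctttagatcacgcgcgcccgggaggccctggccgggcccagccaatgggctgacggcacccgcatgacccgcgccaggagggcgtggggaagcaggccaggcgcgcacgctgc
Slc25a5, chrX:36795347-36795646, plus strand: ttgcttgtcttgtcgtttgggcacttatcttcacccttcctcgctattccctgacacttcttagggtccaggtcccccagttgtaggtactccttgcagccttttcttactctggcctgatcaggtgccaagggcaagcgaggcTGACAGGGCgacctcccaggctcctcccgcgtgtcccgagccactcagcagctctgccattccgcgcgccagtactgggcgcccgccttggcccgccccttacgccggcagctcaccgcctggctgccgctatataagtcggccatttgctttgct
Slc25a25, chr2:32451421-32451720, minus strand, 1 of its 3 windows: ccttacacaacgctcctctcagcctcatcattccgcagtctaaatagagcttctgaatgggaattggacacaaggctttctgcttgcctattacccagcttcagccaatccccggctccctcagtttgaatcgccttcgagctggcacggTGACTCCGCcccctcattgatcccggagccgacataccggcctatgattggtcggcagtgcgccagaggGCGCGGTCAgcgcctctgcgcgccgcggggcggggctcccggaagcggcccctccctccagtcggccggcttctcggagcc

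The window of Slc25a12 holds neither motif, that of Slc25a13 an E-box upstream of the start, that of Slc25a5 an antioxidant response element, and that of Slc25a25 a pair of them on opposite strands. Over the family, TGACNNNGC was in 12 of 34 windows (35.3%) against 12.4% of all 32851 windows, and CACGTG was in 6 (17.6%) against 7.2%. The ATF4 element TGATGNAA was in 0 of 34 against 4.0% of all, and the NRF1 core GCATGCGC in 1 (2.9%) against 2.7%. The windows of the members had a median GC content of 58.5% against 52.7% of all, and its part in these shares was not tested. The 9 genes with TGACNNNGC were Slc25a3, Slc25a5, Slc25a14, Slc25a23, Slc25a25, Slc25a33, Slc25a38, Slc25a40 and Slc25a53. Of these, Slc25a5 and Slc25a25 were called lower with 4-OI, Slc25a53 was not tested, and the others were not called with 4-OI. A match is only a match of letters, and a window without a match says nothing of the factor.

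Slc25a11 exchanges oxoglutarate for malate and is a step of the malate-aspartate shuttle. It was at 87.8, 95.6 and 82.8 CPM in WT vehicle, 89.4, 93.8 and 92.9 in Irg1KO, 111.5, 105.9 and 115.4 with 4-OI and 96.9, 100.6 and 103.5 with hemin. All 4-OI libraries lay above all others, and the hemin libraries lay just above WT vehicle. The rise was 1.24-fold with 4-OI (log2 0.31, SE 0.05, adjusted p = 8.45e-06, edgeR) and 1.13-fold with hemin (log2 0.17, SE 0.05, adjusted p = 0.0245). The 4-OI and hemin groups differed (log2 0.14, SE 0.05, adjusted p = 0.0391). The 4-OI call held in all 15 alternatives, with the lowest log2 fold change at 0.18. The hemin call held in 7 of 15 alternatives. It was lost without hemin replicate 2 or 3 or WT vehicle replicate 1 or 3 (adjusted p 0.0626 to 0.142). It was also lost with DESeq2 (0.0518), on FPKM (0.141 and 0.142) and with only the groups compared (0.0528). The call between 4-OI and hemin held in 7 of 15. It was lost without 4-OI replicate 1 or 3 or hemin replicate 1 or 2 (0.0731 to 0.152). It was also lost with upper-quartile scaling (0.0816), on FPKM (0.351 and 0.353) and with no filter (0.054).

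The 2 mitoferrins, which bring iron into the matrix, moved in opposite directions with 4-OI. Slc25a37 (mitoferrin 1), best known from erythroid cells that make heme, was at 86.4, 72.7 and 80.2 CPM in WT vehicle and at 109.5, 114.8 and 111.3 with 4-OI. It was at 90.2, 90.0 and 84.8 CPM with hemin and 84.2, 78.8 and 80.2 in Irg1KO. Every 4-OI library exceeded every other library, while the other 3 groups overlap or nearly touch. The 4-OI rise was 1.41-fold (log2 0.49, SE 0.06, adjusted p = 2.55e-09) and was called in all 15 alternatives. With hemin the log2 fold change was 0.15 (SE 0.06, adjusted p = 0.0703), which passed only without WT vehicle replicate 1 (0.22, adjusted p = 0.0128). The level with 4-OI exceeded that with hemin (log2 0.34, SE 0.06, adjusted p = 6.32e-06), and in Irg1KO the log2 fold change was 0.03 (SE 0.06, adjusted p = 0.751).

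Slc25a28 (mitoferrin 2), the more widely expressed of the pair, was at 24.0, 24.0 and 26.8 CPM in WT vehicle and 23.4, 20.9 and 19.6 with 4-OI. It was at 22.5, 21.4 and 19.6 CPM in Irg1KO and 26.6, 25.8 and 26.9 with hemin. The Irg1KO and 4-OI libraries all lay below WT vehicle, and the hemin libraries overlap it. The log2 fold change was -0.21 with 4-OI (SE 0.08, adjusted p = 0.035), -0.23 in Irg1KO (SE 0.08, adjusted p = 0.0268) and 0.10 with hemin (SE 0.08, adjusted p = 0.492). Against hemin, 4-OI was lower by -0.30 (SE 0.09, adjusted p = 0.00415), a call kept in all 15 alternatives. The 4-OI call against vehicle was lost with DESeq2 (adjusted p = 0.0862) and without 4-OI replicate 2 or 3 or WT vehicle replicate 3 (0.115 to 0.143). The Irg1KO call was lost without Irg1KO replicate 2 or 3 or WT vehicle replicate 3 (0.0524 to 0.115) and on log2(FPKM + 1) (0.062).

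Set against each other per transcript length, Slc25a37 and Slc25a28 were near equal in vehicle, with FPKM ratios of 0.983, 0.870 and 0.851 in WT. The ratio was 1.31, 1.50 and 1.70 with 4-OI, 0.900, 0.923 and 0.862 with hemin and 1.00, 1.06 and 1.09 in Irg1KO. The 4-OI libraries were above all others, the Irg1KO libraries above WT vehicle, and hemin overlapped WT vehicle. The near equality in vehicle depends on the assigned lengths, 5544.8 to 6030.8 bases for Slc25a37 and 1605.6 to 1823.6 for Slc25a28. Ferrochelatase, the matrix enzyme that puts iron into heme (Fech), rose with 4-OI (log2 0.56, SE 0.06, adjusted p = 8.86e-11) and with hemin (log2 0.19, SE 0.06, adjusted p = 0.0153), and 4-OI exceeded hemin (log2 0.36, SE 0.06, adjusted p = 1.49e-06).

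**Figure D3:**
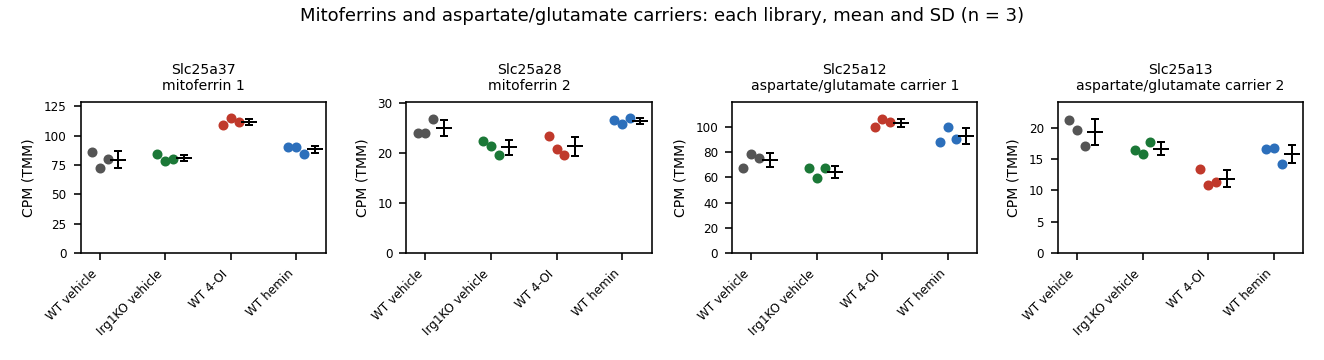
CPM after TMM scaling in each library (points), with group mean and SD (bars, n = 3), for the 2 mitoferrins and the 2 aspartate/glutamate carriers. In the 4-OI libraries Slc25a37 and Slc25a12 lie above, and Slc25a13 below, every library of WT vehicle.

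The ADP/ATP class held 3 adenine nucleotide translocases and 2 ATP-Mg/phosphate carriers, which set the size of the matrix nucleotide pool. With 4-OI, 3 of its 4 tested members fell (25.0% of all genes did) and none rose, in Irg1KO 1 fell (16.3%), and with hemin none was called (17.2% either way). Slc25a5 was at 480.5, 481.9 and 502.9 CPM in WT vehicle and at 446.8, 399.5 and 396.4 with 4-OI. It was at 460.0, 430.0 and 446.7 CPM in Irg1KO and 448.7, 451.0 and 443.7 with hemin. WT vehicle lay above all other libraries. The log2 fold change was -0.24 with 4-OI (SE 0.05, adjusted p = 8.63e-05, called in all 15 alternatives), -0.13 in Irg1KO (SE 0.05, adjusted p = 0.026) and -0.12 with hemin (SE 0.05, adjusted p = 0.0703). The hemin difference passed with RLE and upper-quartile scaling, DESeq2 and FPKM (adjusted p 0.0222 to 0.0485), and the Irg1KO call was lost without Irg1KO replicate 2 (0.122) or WT vehicle replicate 3 (0.0906). Slc25a5 is known to have processed pseudogenes, and reads shared with them were not examined here.

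Slc25a4, the translocase best known from heart and muscle, was at 155.1, 141.9 and 159.9 CPM in WT vehicle, 174.4, 164.8 and 165.2 in Irg1KO, 148.0, 131.7 and 128.0 with 4-OI and 130.0, 160.7 and 144.2 with hemin. The Irg1KO libraries were the highest, and the compound-treated ones overlap WT vehicle. Its fall with 4-OI was small (log2 -0.16, SE 0.07, adjusted p = 0.0476) and was called in only 7 of 15 alternatives, being lost with DESeq2 (0.0754) and without 4-OI replicate 2 or 3 or WT vehicle replicate 1 or 3 (0.140 to 0.182). In Irg1KO the log2 fold change was 0.15 (SE 0.06, adjusted p = 0.0751). The FPKM ratio of Slc25a5 to Slc25a4 was 3.25 ± 0.16 in WT vehicle, 2.69 ± 0.05 in Irg1KO, 3.09 ± 0.04 with 4-OI and 3.15 ± 0.33 with hemin.

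Slc25a25, a calcium-regulated ATP-Mg/phosphate carrier, fell with 4-OI. It was at 17.9, 19.1 and 18.4 CPM in WT vehicle, 16.9, 18.1 and 19.2 in Irg1KO, 14.7, 14.7 and 13.3 with 4-OI and 18.7, 19.0 and 19.7 with hemin. Every 4-OI library lay below every other library. The log2 fold change was -0.37 (SE 0.09, adjusted p = 8.58e-04), and -0.42 when 4-OI was tested against hemin (SE 0.09, adjusted p = 3.99e-04); both calls held in all 15 alternatives. Its paralog Slc25a23 had a mean of at most 1.34 CPM in any group and was not called.

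Of 5 tested amino acid carriers, 3 rose and 1 fell with 4-OI (25.4% and 25.0% of all genes), 3 rose and 1 fell with hemin (9.48% and 7.74%), and 1 fell in Irg1KO (16.3%). Slc25a12 and Slc25a13 are the 2 aspartate/glutamate carriers of the malate-aspartate shuttle; the first is the form of brain and muscle and the second, citrin, that of liver, where it also feeds the urea cycle. Slc25a12 was at 67.4, 78.4 and 74.9 CPM in WT vehicle, 67.0, 59.2 and 67.2 in Irg1KO, 99.4, 106.0 and 103.4 with 4-OI and 87.8, 99.8 and 90.2 with hemin. Both treated groups lay above WT vehicle, and Irg1KO lay just below it. The rise was 1.40-fold with 4-OI (log2 0.48, SE 0.06, adjusted p = 2.93e-08) and 1.26-fold with hemin (log2 0.33, SE 0.06, adjusted p = 1.29e-04), each called in all 15 alternatives. Between 4-OI and hemin the log2 difference was 0.15 (SE 0.06, adjusted p = 0.0496), called in 8 of 15 alternatives. This call was lost with upper-quartile scaling (0.0951) and on FPKM (0.275 and 0.277). It was also lost without 4-OI replicate 2 or 3 or hemin replicate 1 or 3 (0.101 to 0.183). In Irg1KO Slc25a12 was lower by -0.20 (SE 0.06, adjusted p = 0.0117), lost without Irg1KO replicate 2 (0.124) or WT vehicle replicate 2 (0.0989).

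Slc25a13 moved the other way with both compounds. It was at 21.2, 19.5 and 17.1 CPM in WT vehicle, 16.5, 15.7 and 17.8 in Irg1KO, 13.3, 10.9 and 11.4 with 4-OI and 16.5, 16.8 and 14.2 with hemin. All 4-OI libraries lay below all others, and the hemin libraries lay below WT vehicle by a small gap. The fall was 1.63-fold with 4-OI (log2 -0.71, SE 0.10, adjusted p = 4.54e-07, called in all 15 alternatives), the largest fall from WT vehicle among called members. With hemin the log2 fold change was -0.30 (SE 0.10, adjusted p = 0.0356), a call lost with DESeq2 (0.0721) and without WT vehicle replicate 1 or 2 or hemin replicate 3 (0.0874 to 0.233). The level with 4-OI was below that with hemin (log2 -0.41, SE 0.11, adjusted p = 0.00288), in all 15 alternatives. In Irg1KO the log2 fold change was -0.23 (SE 0.10, adjusted p = 0.0611), which passed in 5 of 15 alternatives, among them RLE scaling (0.0352), no filter (0.0264) and leaving out WT vehicle replicate 3 (0.0204) or Irg1KO replicate 3 (0.0417).

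The FPKM ratio of Slc25a12 to Slc25a13 was 2.08, 2.59 and 2.83 in WT vehicle, 2.65, 2.46 and 2.45 in Irg1KO, 3.36, 3.83 and 4.10 with hemin and 4.85, 6.41 and 5.91 with 4-OI. The groups are ordered without overlap from vehicle of either genotype to hemin to 4-OI. Among shuttle partners of these carriers, cytosolic aspartate aminotransferase (Got1) fell with 4-OI (log2 -0.36, SE 0.06, adjusted p = 5.71e-06) and with hemin (log2 -0.20, SE 0.06, adjusted p = 0.0146), while cytosolic malate dehydrogenase (Mdh1) was not called (log2 0.10 with each, adjusted p = 0.193 and 0.294).

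**Figure D4:**
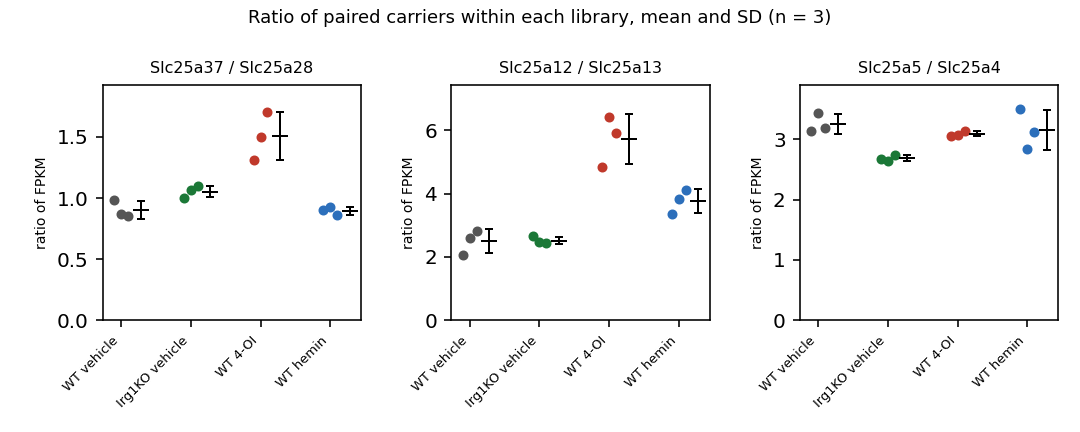
Ratio of deposited FPKM of carrier pairs within each library (points), with group mean and SD (bars, n = 3). The ratios Slc25a37 to Slc25a28 and Slc25a12 to Slc25a13 are highest in the 4-OI libraries, and Slc25a5 to Slc25a4 is lowest in Irg1KO.

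Slc25a22, a glutamate carrier, was at 38.9, 36.5 and 41.8 CPM in WT vehicle, 33.7, 42.6 and 39.4 in Irg1KO, 46.6, 49.8 and 53.1 with 4-OI and 42.1, 49.6 and 44.9 with hemin. Both treated groups lay above WT vehicle, hemin by a small gap. The log2 fold change was 0.36 with 4-OI (SE 0.08, adjusted p = 2.38e-04) and 0.24 with hemin (SE 0.08, adjusted p = 0.0324), and the compounds were not called different (0.12, SE 0.08, adjusted p = 0.232). On log2(FPKM + 1) neither call remained (0.0578 and 0.253). The hemin call held in 8 of 15 alternatives, being lost also with DESeq2 (0.0776). It was lost as well without hemin replicate 2 or 3 or WT vehicle replicate 1 or 2 (0.0659 to 0.217). Slc25a44, which brings branched-chain amino acids into the matrix, rose from 36.9 ± 1.3 CPM to 43.3 ± 2.1 with 4-OI (log2 0.24, SE 0.07, adjusted p = 0.00255) and 42.1 ± 0.9 with hemin (log2 0.20, SE 0.07, adjusted p = 0.0307). The FPKM tests gave 0.169 and 0.132. The hemin call held in 8 of 15 alternatives, being lost also with DESeq2 (0.0766). It was lost as well without WT vehicle replicate 1 or 2 or hemin replicate 2 or 3 (0.0838 to 0.098).

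Slc25a38 brings in glycine for the first step of heme synthesis. It was at 11.9, 10.4 and 10.7 CPM in WT vehicle, 11.0, 11.5 and 10.3 in Irg1KO, 12.8, 10.5 and 10.1 with 4-OI and 14.2, 12.3 and 11.8 with hemin. All groups overlap WT vehicle. The log2 fold change was 0.02 with 4-OI (SE 0.12, adjusted p = 0.881), 0.20 with hemin (SE 0.11, adjusted p = 0.237) and -0.002 in Irg1KO (SE 0.11, adjusted p = 0.991).

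Among the 18 other tested carriers none fell; 2 rose with 4-OI, so 11.1% were called against 50.4% of all genes. With hemin 3 rose, or 16.7% against 17.2%, and in Irg1KO 0.0% were called against 39.8%. Slc25a43, whose substrate is not settled, had the largest rise from WT vehicle of all members, at a low level. It was at 3.52, 4.89 and 5.07 CPM in WT vehicle, 4.84, 5.73 and 4.97 in Irg1KO, 6.90, 8.66 and 7.08 with 4-OI and 5.83, 7.89 and 5.56 with hemin. Both treated groups lay above WT vehicle and overlap each other. The rise was 1.70-fold with 4-OI (log2 0.77, SE 0.16, adjusted p = 1.35e-04, in all 15 alternatives) and 1.45-fold with hemin (log2 0.53, SE 0.17, adjusted p = 0.0218), the latter lost with DESeq2 (0.0565) and without WT vehicle replicate 1 (0.157) or hemin replicate 2 (0.262). The compounds were not called different (log2 0.23, SE 0.16, adjusted p = 0.254).

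The glutathione carrier Slc25a39 was at 101.3, 105.8 and 98.7 CPM in WT vehicle, 100.2, 95.4 and 99.3 in Irg1KO, 107.7, 118.8 and 105.9 with 4-OI and 106.8, 123.2 and 110.4 with hemin. Both treated groups lay above WT vehicle by a small gap. The log2 fold change was 0.15 with hemin (SE 0.06, adjusted p = 0.0498), called in 5 of 15 alternatives and lost without hemin replicate 2 or 3 or WT vehicle replicate 1 or 3 (0.0611 to 0.376), and 0.12 with 4-OI (SE 0.06, adjusted p = 0.0682). Its paralog Slc25a40, also a glutathione carrier, had log2 fold changes of 0.03 with 4-OI (adjusted p = 0.733) and 0.01 with hemin (adjusted p = 0.932). Per transcript length, Slc25a39 stood at 68.2 ± 1.9 FPKM and Slc25a40 at 6.18 ± 0.16 FPKM in WT vehicle. This contrast depends on the assigned lengths, 1654.3 to 1675.8 bases for Slc25a39 and 8460 to 9686.7 for Slc25a40.

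Slc25a33, a pyrimidine nucleotide carrier, was at 9.77, 8.04 and 8.31 CPM in WT vehicle, 10.3, 8.86 and 9.40 in Irg1KO, 10.2, 7.92 and 9.02 with 4-OI and 9.12, 12.3 and 11.6 with hemin. Hemin overlaps WT vehicle. Its log2 fold change with hemin was 0.35 (SE 0.13, adjusted p = 0.0484), called in 5 of 15 alternatives and lost without hemin replicate 2 or 3 or WT vehicle replicate 2 or 3 (0.108 to 0.253). Slc25a36, the other pyrimidine nucleotide carrier, was not called in any comparison.

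Slc25a45 rose from 54.6 ± 2.2 CPM in WT vehicle to 65.4 ± 1.0 with 4-OI (log2 0.26, SE 0.06, adjusted p = 3.29e-04) and was at 58.2 ± 3.3 with hemin (log2 0.09, SE 0.06, adjusted p = 0.358) and 53.1 ± 2.2 in Irg1KO. The 4-OI level exceeded that with hemin (log2 0.17, SE 0.06, adjusted p = 0.02), a call lost without 4-OI replicate 2 or hemin replicate 2 or 3 (0.0687 to 0.0931), and on log2(FPKM + 1) neither call remained (0.104 and 0.268). Slc25a46, an outer membrane member tied to mitochondrial shape, was called higher with 4-OI than with hemin (log2 0.16, SE 0.07, adjusted p = 0.0466) with overlapping groups. The call held in 8 of 15 alternatives. It was lost with upper-quartile scaling (0.0853) and on log2(FPKM + 1) (0.395). It was also lost without 4-OI replicate 2 or 3 or hemin replicate 2 or 3 (0.110 to 0.218). Slc25a47 was the only one of the 30 tested members past 2-fold in these 4 comparisons, at log2 1.21 between 4-OI and hemin (SE 0.47, adjusted p = 0.0376). It held only 2 to 12 expected counts a library, and the call was lost with DESeq2 (0.1) and with no filter (0.0842). The call was also lost without 4-OI replicate 1 or 3 or hemin replicate 2 or 3 (0.0519 to 0.234).

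Slc25a3 was not called against WT vehicle, at 307.9 ± 20.1 CPM against 303.2 ± 26.9 with 4-OI, 306.5 ± 13.8 with hemin and 333.5 ± 3.8 in Irg1KO (adjusted p = 0.782, 0.963 and 0.0855). Nor was any call made for carriers such as Slc25a51 (the NAD carrier), Slc25a32 (folate and FAD), Slc25a26 (S-adenosylmethionine), Slc25a16 (coenzyme A), Slc25a17, Slc25a14, Slc25a30 and Slc25a35. A p above the threshold does not show that these levels were equal.

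**Figure D5:**
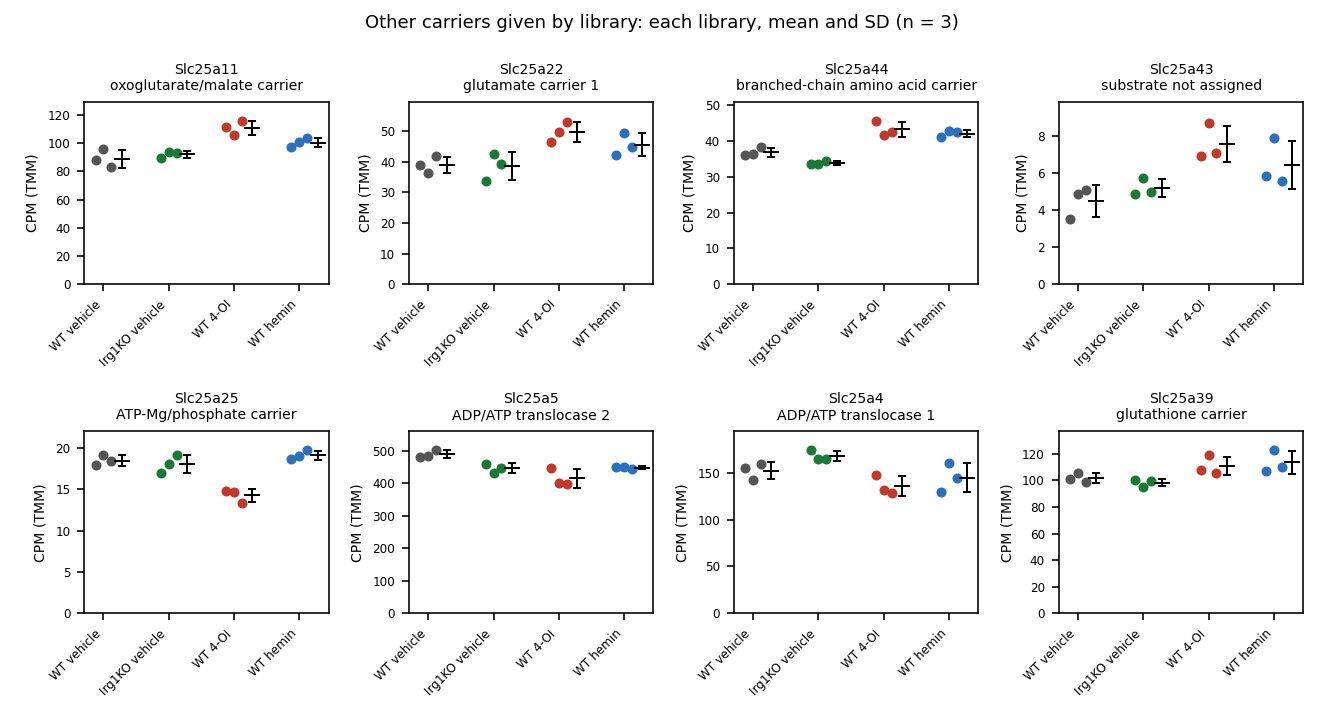
CPM after TMM scaling in each library (points), with group mean and SD (bars, n = 3), for 8 further carriers; each axis starts at 0. Slc25a11, Slc25a22, Slc25a44 and Slc25a43 lie higher, and Slc25a25 lower, in the 4-OI libraries than in WT vehicle.

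In Irg1KO, Slc25a5, Slc25a12 and Slc25a28 were thus the 3 called members, each lower by at most 1.17-fold. Without Irg1KO replicate 2 none of them was called (13.4% of all genes lower), and these libraries also held the high stromal and contractile markers given above. Of members higher with 4-OI, none was called in Irg1KO in either direction but Slc25a12, which was lower there.

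Genes that work beside the carriers were looked at in the same fit, in which 50.4% of all genes were called with 4-OI, 17.2% with hemin and 39.8% in Irg1KO. Ucp2, an SLC25 protein named for uncoupling, rose from 319.3, 328.1 and 343.6 CPM in WT vehicle to 621.0, 625.2 and 645.9 with 4-OI. It was at 398.9, 447.8 and 407.6 CPM with hemin and 303.8, 279.7 and 300.9 in Irg1KO. None of the 4 groups overlaps another. Its log2 fold change was 0.93 with 4-OI (SE 0.05, adjusted p = 2.22e-18), 0.34 with hemin (SE 0.05, adjusted p = 2.14e-06) and -0.16 in Irg1KO (SE 0.05, adjusted p = 0.00756), and 4-OI exceeded hemin (0.59, SE 0.05, adjusted p = 1.42e-12). Of the other 2 tested genes of this family that go by other names, Mtch1 was higher in Irg1KO (log2 0.25, SE 0.06, adjusted p = 0.00128) and Mtch2 was not called.

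Among 15 tested carriers and channels of other families, 3 rose and 4 fell with 4-OI, a share near that of all genes, 1 rose with hemin, and 1 rose and 1 fell in Irg1KO. With 4-OI the sideroflexins split. Sfxn3 (log2 0.88) and Sfxn5 (0.57) rose, and Sfxn2 (-0.72) fell. Mpc1, a subunit of the mitochondrial pyruvate carrier, rose (0.55), while the calcium uniporter Mcu (-0.32) and Letm1 (-0.16) fell. Of 9 tested enzymes that make or use carried metabolites, 5 rose and 1 fell with 4-OI, 3 rose and 1 fell with hemin, and 1 rose and 1 fell in Irg1KO. Malic enzyme Me1 was higher in every comparison with WT vehicle (log2 1.56 with 4-OI, 0.93 with hemin and 1.06 in Irg1KO). With 4-OI, Cpt1a (1.12), ATP citrate lyase (Acly, 0.41) and cytosolic aconitase (Aco1, 0.27) also rose; Cpt1a makes acylcarnitines, and Acly splits exported citrate. Of 6 tested genes of mitochondrial content, 1 rose and 2 fell with 4-OI: citrate synthase Cs (0.23), Ndufs1 (-0.18) and Ppargc1b, a coactivator of mitochondrial genes (-1.38). With hemin, Cs alone of the 6 was called (0.15), and 3 of the 6 were lower in Irg1KO, by -0.12 to -0.39. Of 3 tested import factors, Agk was lower with 4-OI (-0.28, adjusted p = 0.0102) and none was called with hemin or in Irg1KO. Many genes looked for could not be tested. Those tested were 9 of 18 enzymes, 6 of 14 genes of mitochondrial content and 3 of 13 import factors. These counts therefore do not cover the pathways.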

How the data were processed

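Each of the 12 libraries has 1 deposited table of genes. Its expected counts, per the file headers, are the authors' estimated reads per gene, 90.62 to 92.03% of them whole. Its FPKM, per the file headers, were deposited by the authors and divide counts by transcript length and library total. The submitters' processing notes name RSEM, Bowtie2, StringTie and HISAT2 and the build GRCm39/mm39, with no versions. A gene missing from a table was taken as 0.

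Expected counts were rounded, filtered with filterByExpr (12148 genes), scaled with TMM (factors 0.944 to 1.05) and tested in 1 fit of all 12 libraries with edgeR 4.0.16 (R 4.3.3), robust quasi-likelihood, Benjamini-Hochberg over all genes, threshold 0.05. Each SE was taken from the size of the log2 fold change over the root of its F statistic, and the common biological coefficient of variation was 4.71%. The script was tested on simulated data. The alternatives, with limma 3.58.1 and DESeq2 1.42.0, were RLE and upper-quartile scaling, DESeq2, limma on log2(FPKM + 1 or 0.1), no filter, 10 counts in 6 libraries, only the groups compared, a replicate block, and leaving out each library. Promoters are RefSeq's, on GRCm38.p6, used for sequence only; a protein table was not used here.

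Members and gene lists were chosen with earlier results of these data known. Given by library were Slc25a4, a5, a11, a28, a37, a38 and a39, and in each comparison with vehicle up to 4 called members with the highest and 4 with the lowest fold change at a mean of at least 1 CPM; Slc25a3, Slc25a44, Slc25a45 and others are given by mean or fold change. Adipocyte markers, also checked, summed to at most 0.284 CPM in any library. Values of 1 member and of a few other genes are not reported here, though they enter the counts.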

Additional observations from a re-analysis of the deposited data

How the results depend on the processing

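Over 1012 fold changes of 17 members recomputed under the alternatives, no called one turned its direction, 30 gained the call and 109 lost it; some uncalled ones near 0 changed sign. The counts of called members were less stable. For Irg1KO, 0 higher became 1 with only the groups compared and 0 to 1 on leaving out a library, and 3 lower became 0 to 3. For 4-OI, 7 higher became 4 with FPKM (1 or 0.1 added) and 7 to 8 on leaving out a library; 5 lower became 3 with DESeq2, 8 with FPKM, and 3 to 5. For hemin, 7 higher became 1 with DESeq2, 2 with FPKM, 4 with only the groups compared, and 1 to 7; 1 lower became 2 with RLE, upper-quartile scaling or FPKM, and 0 to 1. For 4-OI against hemin, 6 higher became 3 with upper-quartile scaling, 2 with FPKM, and 2 to 4; 3 lower became 6, 7, and 3 to 5. The causes were not tested. Whether replicate numbers mark a shared mouse or day is not stated. Of 18 same-number correlations, 1 was over 0.1 (-0.076 to 0.147), and 14 of 36 correlated best with their own number. With 3 libraries a group, such correlations cannot decide whether the libraries were paired. With the replicate block the called members were 3, 11, 8 and 9 in place of 3, 12, 8 and 9, Slc25a4 with 4-OI being lost (adjusted p = 0.0898). Carriers with few counts, such as Slc25a47 and the 5 not tested, allow no firm statement at this depth.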
